A study of Mus musculus with 18 samples.

Results

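Endothelial marker genes were followed in laser-microdissected mouse carotid artery before wire injury and over the 4 weeks after it. The set comprised 10 genes taken by symbol from the deposited count table of 35655 genes: Pecam1, Cdh5, Vwf, Kdr, Tie1, Tek, Egfl7, Esam, Emcn and Nos3. All 10 were found, had a count on every day and passed the filter on low counts that left 10312 genes for testing. Before injury, 9 of the 10 were detected in at least 3 of 4 libraries, whereas Kdr had 1 count in all. The libraries came from male wild-type (WT) C57/BL6 mice on chow diet, injured at 11 weeks of age in the left carotid, with the right carotid serving as control, and vessels with signs of thrombosis had been discarded. Day 0 (pre-injury) had 4 libraries, and days 7, 14, 21 and 28 after wire injury had 4, 3, 4 and 3, each labelled with a mouse number. All days share genotype, strain and method. Whether the day 0 libraries came from uninjured mice or from right carotids of injured mice is not stated in the sources used here, so injury and vessel side cannot be told apart. The sections contained the outer elastic lamina and neointima, and no cell type was sorted from them. Up to 70 sections went into an RNA sample. The study describes the samples as pooled without saying what was pooled, and 3 mouse numbers stand on both a day 0 and a day 21 library, so p-values measure the spread between these libraries, part of which may be technical.

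The endothelium is the single layer of cells that lines every vessel, seals it by cell junctions, keeps blood from clotting and relaxes the underlying muscle through nitric oxide. A wire passed along the artery strips this layer, and bare vessel wall is recovered by endothelial cells that migrate and divide in from its edges. Vascular endothelial growth factor (VEGF) receptors drive that migration, the angiopoietin receptors Tie1 and Tek govern how quiescent the layer is, and von Willebrand factor (Vwf) is stored for release to platelets. Several of these genes are not exclusive to the lining: Pecam1 is also carried by platelets and leukocytes, and Vwf is also made by megakaryocytes.

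Counts are of 3′ tags (MACE sequencing), with PCR copies removed by molecular identifiers, and are given as CPM, the counts per 1000000 of the library's effective total. The libraries held 440675 to 878310 counts, with a median of 659166, so that 3 counts in a library corresponded to 3.55 to 6.98 CPM. Of the 180 values of the 10 markers in 18 libraries, 9 were 0 and 11 were under 3 counts. Adjusted p-values are those of edgeR's quasi-likelihood test with Benjamini-Hochberg adjustment over all 10312 genes, and a gene is said to have risen or fallen where this was under 0.05. In bulk tissue of this kind, fewer endothelial cells and less RNA per endothelial cell cannot be told apart.

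Promoter sequence was available for 5 of the 10 genes in RefSeq's promoter table (assembly GRCm38.p6), and 4 are shown because they set 2 genes that rose on day 7, Kdr and Egfl7, beside the angiopoietin receptors Tie1 and Tek, which did not pass the test. Each run is the 250 bases before the start site, 5′ to 3′ on the gene's own strand, with GGAAG and, from the other strand, CTTCC in capitals, the letters at the core of many sites for ETS factors, a family that includes the endothelial factors Erg and Fli1. On that assembly they lie at chr5:75978456-75978705 (minus strand, Kdr), chr2:26580833-26581082 (plus, Egfl7), chr4:118489850-118490099 (minus, Tie1) and chr4:94739039-94739288 (plus, Tek).
Kdr: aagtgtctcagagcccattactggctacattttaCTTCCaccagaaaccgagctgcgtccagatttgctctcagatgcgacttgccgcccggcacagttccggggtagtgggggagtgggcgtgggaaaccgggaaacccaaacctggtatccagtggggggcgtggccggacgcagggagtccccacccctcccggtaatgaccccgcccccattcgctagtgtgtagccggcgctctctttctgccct
Egfl7: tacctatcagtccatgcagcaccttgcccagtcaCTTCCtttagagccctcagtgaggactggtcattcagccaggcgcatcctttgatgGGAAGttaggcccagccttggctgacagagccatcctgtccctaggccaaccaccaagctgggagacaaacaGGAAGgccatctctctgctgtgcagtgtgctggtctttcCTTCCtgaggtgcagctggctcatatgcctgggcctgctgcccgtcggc
Tie1: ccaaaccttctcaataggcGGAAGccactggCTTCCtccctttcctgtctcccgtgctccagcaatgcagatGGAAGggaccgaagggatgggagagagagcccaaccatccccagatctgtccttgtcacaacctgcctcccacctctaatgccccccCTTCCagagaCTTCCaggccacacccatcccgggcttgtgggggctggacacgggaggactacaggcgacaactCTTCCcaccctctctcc
Tek: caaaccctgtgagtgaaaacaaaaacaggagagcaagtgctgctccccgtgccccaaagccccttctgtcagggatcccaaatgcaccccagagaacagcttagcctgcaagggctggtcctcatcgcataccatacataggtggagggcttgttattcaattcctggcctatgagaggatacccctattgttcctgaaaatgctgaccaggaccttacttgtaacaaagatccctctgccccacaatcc
The motif stood 1 time in the Kdr window, 4 times in Egfl7, 6 times in Tie1 and 2 times in Emcn, and 0 times in Tek. It was present in 63.7% of the 27025 promoters of this length and in 4 of the 5 marker windows. The letters AGATAA, at the core of many sites for GATA factors, were likewise searched on both strands and stood in 0 of the 5 windows and in 10.2% of all promoters. Pecam1, Cdh5, Vwf, Esam and Nos3 had no entry.

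Summed over the 10 genes, the mean endothelial signal after injury was on no day below that of day 0. On day 28 this rested on Pecam1, which averaged 669.7 CPM against 540.3 CPM on day 0. The remaining markers together were below their day 0 level on day 28. The sum was 1058 ± 233 CPM before injury (SD, n = 4) and 1592 ± 879.9 CPM on day 7 (n = 4). It was 1103 ± 66.3 CPM on day 14 (n = 3), 1141 ± 360.1 CPM on day 21 (n = 4) and 1103 ± 116 CPM on day 28 (n = 3). The day 7 libraries were split, with 832 and 868 CPM in replicates 1 and 2, inside the day 0 range of 786 to 1334 CPM, and 2578 and 2091 CPM in replicates 3 and 4, above every other library of the series. Replicates 3 and 4 held the highest value of that day for all 10 genes, 7 in the former and 3 in the latter. Pecam1 alone made up between 41.8% (day 7) and 60.5% (day 28) of the sum on average. Its composition moved: Vwf was 14.5% of it on day 0 and 1.37% on day 7, Cdh5 6.22% and 15.7%, and Egfl7 8.37% and 17.6%.

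Tested one by one against day 0, 3 markers rose and 1 fell on day 7. Cdh5, Kdr and Egfl7 were higher and Vwf was lower, at a background of 19.8% of all genes called in either direction, 11.3% higher and 8.53% lower. The median log2 fold change of the 10 was 0.96, beside 0.07 over all genes tested. On day 14 and on day 21 Kdr alone passed the test (1 of 10 each; background 6.22% in either direction and 4.80% higher on day 14, 8.84% and 5.92% on day 21). Kdr, with 1 count on day 0, passed the filter on low counts through libraries after injury, where it was high. This bears on every count of markers that includes Kdr. With only days 0 and 7 in the fit Kdr did not pass the filter, and of 9 markers tested 2 rose and 1 fell. With only days 0 and 14 it did not pass either, and of 9 tested 0 rose and 1, Vwf, fell. On day 28 the count was 0 of 10 (background 1.34%), and 0 markers reached an unadjusted p under 0.05 or were called by DESeq2. Nor did the libraries of day 28 separate from day 0 for any marker (0 of 10; background 4.88% upwards and 5.07% downwards). The median log2 fold change of the markers on days 14, 21 and 28 was 0.07, 0.31 and -0.01. In a test for any difference over the 5 days the adjusted p was 8.10e-04 for Cdh5, 0.0021 for Kdr, 0.0116 for Vwf and 0.0347 for Egfl7, and at least 0.0835 for the others.

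**Figure D1:**
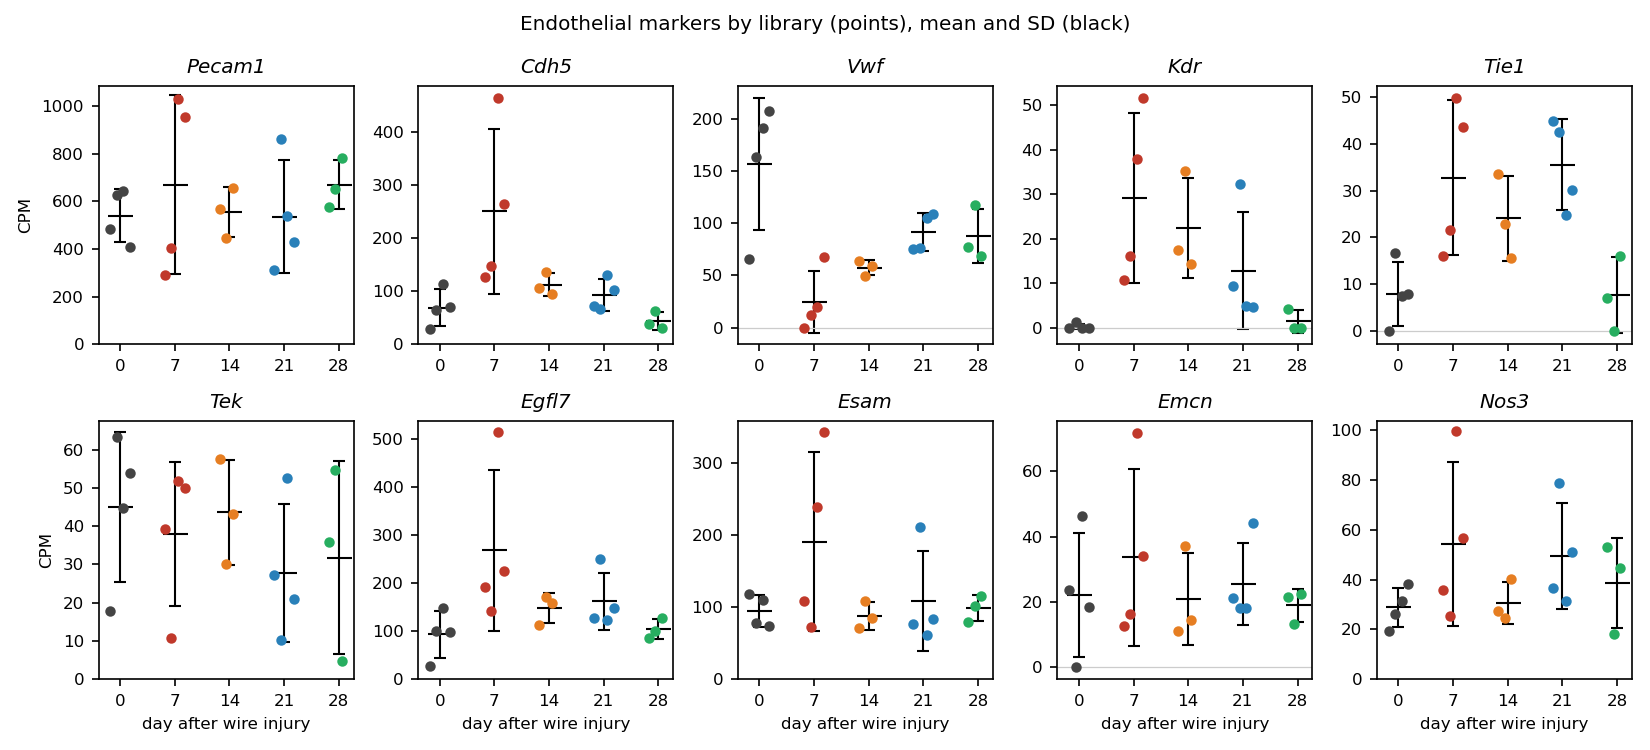
Level of each of the 10 endothelial markers in CPM (vertical axes, scaled per gene) against day after wire injury; points are libraries, and the black bar and whiskers are mean and SD of 4, 4, 3, 4 and 3 libraries. Vwf was at 0 to 67.8 CPM on day 7 and at 65.5 to 207 CPM on day 0, while Cdh5 was above every day 0 library on day 7 and Kdr was at or near 0 on days 0 and 28.

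Of the 3 junction genes, Cdh5 passed the test on day 7. Cdh5, the cadherin that holds endothelial cells to each other (VE-cadherin; ENSMUSG00000031871, chr8:104828231-104871143 on GRCm39, plus strand), was at 28.3, 64.6, 113 and 69.6 CPM in the 4 libraries of day 0. On day 7 it was at 126, 147, 464 and 263 CPM, and every library lay above every day 0 library. Of the 10 markers, Cdh5 and Kdr separated upwards in this way on day 7, as did 13.6% of all genes, and none separated downwards (0 of 10, background 9.71%). The rise was 3.62-fold, a log2 fold change of 1.86 (SE 0.40, adjusted p = 0.00134), and it passed the test in all alternatives run, including the fits without each library. Cdh5 then stood at 106, 136 and 93.9 CPM on day 14, at 72.2, 66.6, 129.9 and 102 CPM on day 21 and at 38.8, 62.8 and 30.4 CPM on day 28. These ranges overlap day 0, and the log2 fold changes against day 0 of 0.69, 0.43 and -0.65 did not pass the test.

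Pecam1, the homophilic adhesion molecule CD31 (ENSMUSG00000020717, chr11:106543689-106641454, minus strand), had no such peak. It was at 485, 624, 642 and 409 CPM on day 0 and at 290.2, 404, 1029 and 954 CPM on day 7, where replicates 1 and 2 were under the lowest day 0 library and replicates 3 and 4 above the highest. Its log2 fold change on day 7 was 0.31, with a 95% interval of -0.37 to 0.99 and an adjusted p of 0.596. On days 14, 21 and 28 its ranges were 446 to 655, 309.9 to 862 and 576 to 779.8 CPM. Within a library, Pecam1 per Cdh5 count had a median of 7.78 on day 0 (range 5.67 to 17.2), 2.52 on day 7 (2.21 to 3.63) and 14.9 on day 28 (10.4 to 25.7). The 4 day 7 ratios lay below all day 0 ratios. This and the other ratios were chosen after the values were seen and carry no test.

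Esam, an immunoglobulin-type molecule of endothelial tight junctions (ENSMUSG00000001946, chr9:37439344-37449615, plus strand), was at 73.5 to 118 CPM on day 0. On day 7 it was at 109, 71.9, 239 and 344 CPM, so that 2 libraries lay within the day 0 range or below it and 2 above. The log2 fold change was 1.01 (SE 0.40, adjusted p = 0.0799). It passed the test without day 7 replicate 2 (1.24, adjusted p = 0.0299) and with no filter on low counts (1.03, adjusted p = 0.015).

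Among the receptors, Kdr, the main VEGF receptor (VEGFR2; ENSMUSG00000062960, chr5:76093487-76139884, minus strand), was nearly absent from the day 0 libraries. It was at 0, 1.2, 0 and 0 CPM on day 0, which is 1 count in 4 libraries. It was at 10.7, 16.2, 37.9 and 51.7 CPM on day 7 and at 17.6, 35.3 and 14.4 CPM on day 14. On day 21 it was at 9.46, 32.3, 4.93 and 4.65 CPM, and on day 28 at 4.31, 0 and 0 CPM. All libraries of days 7, 14 and 21 were above all of day 0, whereas day 28, with 3 counts in all, could not be distinguished from day 0 at this depth and no fold is given for it.

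With 66 counts against 1, Kdr on day 7 was 86.7-fold above day 0 after scaling to the effective totals, with an exact 95% interval of 15 to 3475, and the adjusted p was 6.70e-04. The ratio was 63.1 on day 14 (interval 10.7 to 2550.1, adjusted p = 0.00535) and 35.9 on day 21 (5.94 to 1464, adjusted p = 0.0135). These intervals cover counting error only. The day 21 call rests on 1 library: without day 21 replicate 2 the adjusted p was 0.0751. Separation upwards from day 0 was seen for Kdr alone of the 10 on day 14 (background 10.7%) and for Kdr and Tie1 on day 21 (background 9.31%).

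Tie1, the receptor without a firmly known ligand that modulates Tek (ENSMUSG00000033191, chr4:118328385-118347261, minus strand), was at 0, 16.7, 7.45 and 7.87 CPM on day 0 and at 16, 21.6, 49.8 and 43.6 CPM on day 7. On day 14 it was at 33.6, 22.9 and 15.7 CPM, on day 21 at 44.9, 42.4, 24.7 and 30.2 CPM, and on day 28 at 7.18, 0 and 16 CPM. The day 21 libraries all exceeded day 0, and those of days 7 and 14 overlapped its highest library. Neither the day 7 log2 fold change of 1.97 (SE 0.73, adjusted p = 0.0594) nor that of day 21, 2.10 (SE 0.73, adjusted p = 0.0729), passed the test, while DESeq2 gave 0.0139 and 0.0159 as their adjusted p and a fit with the mouse number as block gave 0.0386 and 0.0302.

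Tek, the angiopoietin receptor Tie2 (ENSMUSG00000006386, chr4:94627291-94763224, plus strand), had overlapping ranges on every day: 17.9 to 63.4 CPM on day 0, 10.8 to 51.8 on day 7, 30 to 57.6 on day 14, 10.1 to 52.6 on day 21 and 4.79 to 54.6 on day 28. Its log2 fold change on day 7 was -0.25 with an interval of -1.42 to 0.92, which leaves room for changes in both directions. Tek per Tie1 count had a median of 6 in the 3 day 0 libraries with any Tie1 count (range 3.79 to 6.83) and of 1.09 on day 7 (0.5 to 2.44), without overlap. On day 28 the ratio was 5 and 0.3 in the 2 libraries where it could be formed.

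Of the secreted products, Vwf (ENSMUSG00000001930, chr6:125523737-125663642, plus strand) was the 1 marker that fell. It was at 65.5, 163, 191 and 207 CPM on day 0. On day 7 it was at 0, 12.6, 19.9 and 67.8 CPM, where replicate 1 had no count (a level of up to 5.34 CPM is allowed by a count of 0) and replicate 4 was just above the lowest day 0 library. It was at 64, 49.4 and 58.7 CPM on day 14, all below day 0, a separation seen downwards for 1 of 10 markers (background 6.79%).

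The day 7 fall of Vwf was 6.1-fold, a log2 fold change of -2.61 (SE 0.54, adjusted p = 0.00107), and it passed the test in all alternatives run. On day 14 the log2 fold change was -1.44 (SE 0.55) and did not pass the test (adjusted p = 0.141), but it passed with no filter on low counts (0.00724), with only days 0 and 14 in the fit (0.0303), and without day 7 replicate 1 (0.0448) or 4 (0.0482). On day 21 Vwf was at 75.7, 76.7, 105 and 109 CPM and on day 28 at 77.6, 117 and 68.7 CPM, within the day 0 range. The log2 fold changes of -0.78 and -0.83 did not pass the test.

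The deposited normalised values treat Vwf unlike the other markers. They carry a factor per gene and library beyond library size, which for Vwf ran from 0.152 to 4.4, a 29.1-fold span that exceeds that of 99.6% of tested genes. For the other 9 markers the span was 1 to 1.5-fold. The median Vwf factor was 0.466 on day 0, 3.99 on day 7 and 4.02 on day 28, and the counts were divided by it. In those values Vwf averaged 251 ± 161 on day 0 (SD, n = 4), 71.3 ± 139 on day 7 (n = 4) and 14.3 ± 4.42 on day 28 (n = 3). In CPM the day 28 mean was 87.9 against 157 on day 0, with day 28 inside the day 0 range. That overlap is not seen in the normalised values. The day 7 call was made in both scales, with a limma log2 fold change of -4.75 (adjusted p = 0.00268) in the normalised values, and that of day 28 against day 0 was -3.77 (adjusted p = 0.104).

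Platelets also hold Vwf, and 3 of 12 genes of the platelet list were tested. The sum of 12 platelet genes was 96.8 CPM on day 0 (range 62.6 to 133) and 312 CPM on day 7 (245 to 395), most of it from Pf4. Pf4, a platelet granule chemokine, rose from 9.97 to 222 CPM (log2 fold change 4.46, adjusted p = 2.33e-06). In the same libraries the sum of 16 macrophage genes went from 316 to 6812 CPM, and which cells carried Pf4 was not tested. Gp1bb, a subunit of the platelet receptor for Vwf, was at 72.8 CPM on day 0 and 43.8 CPM on day 7 (log2 fold change -0.73, adjusted p = 0.121). Like Vwf it was above its day 7 level on day 21, by 1.41 (adjusted p = 0.00688), with 1.09 for day 28 (adjusted p = 0.0326). Pf4 went the other way, its log2 fold changes against day 7 being -2.89 for day 21 and -5.70 for day 28. Both falls passed the test (6.63e-04 and 1.61e-05 after adjustment). Nrgn was not called on any day. Of the list 7 genes were at 0 on day 0. On day 7 4 were at 0, among them the receptor subunits Gp9, Gp1ba and Gp6. The part of platelets in the course of Vwf was not tested.

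Egfl7, a matrix protein secreted by endothelial cells whose intron carries the microRNA Mir126a (ENSMUSG00000026921, chr2:26468286-26486789, plus strand), rose with Cdh5. It was at 28.3, 99.2, 148 and 98.4 CPM on day 0 and at 192, 142, 514 and 226 CPM on day 7, where replicate 2 was below the highest day 0 library. The rise was 2.87-fold (log2 1.52, SE 0.39, adjusted p = 0.00682). It depends on 1 library, since without day 7 replicate 3 the log2 fold change was 0.97 and the adjusted p 0.082. Later levels were 112, 171 and 159 CPM on day 14, 128, 250.3, 123 and 149 CPM on day 21, and 86.2, 99.2 and 128 CPM on day 28, with no call against day 0. Egfl7 exons overlap those of Agpat2 on the other strand, which was at 28.4 CPM on day 0 and 21.6 CPM on day 7; whether counting used strand is not given in the sources used here.

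Emcn, the sialomucin endomucin, which is typical of veins and capillaries (ENSMUSG00000054690, chr3:137046794-137138999, plus strand), was at 23.8, 0, 46.2 and 18.4 CPM on day 0 and at 12.5, 16.2, 71.8 and 33.9 CPM on day 7. The groups overlapped, with a log2 fold change of 0.61 and an interval of -0.88 to 2.09. On the later days it was between 11.2 and 44.2 CPM.

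Nos3, the endothelial nitric oxide synthase (ENSMUSG00000028978, chr5:24569787-24589475, plus strand), was at 19.4 to 38.1 CPM on day 0 and at 35.6, 25.2, 99.7 and 56.5 CPM on day 7. The 2 highest day 7 libraries exceeded day 0 and the other 2 lay inside its range. The log2 fold change of 0.90 (SE 0.45, adjusted p = 0.185) did not pass the test, nor did that of day 21, 0.76 (adjusted p = 0.351), where the range was 31.2 to 78.7 CPM. The end of Nos3 overlaps Atg9b on the other strand, which had 0 counts in every library.

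**Figure D2:**
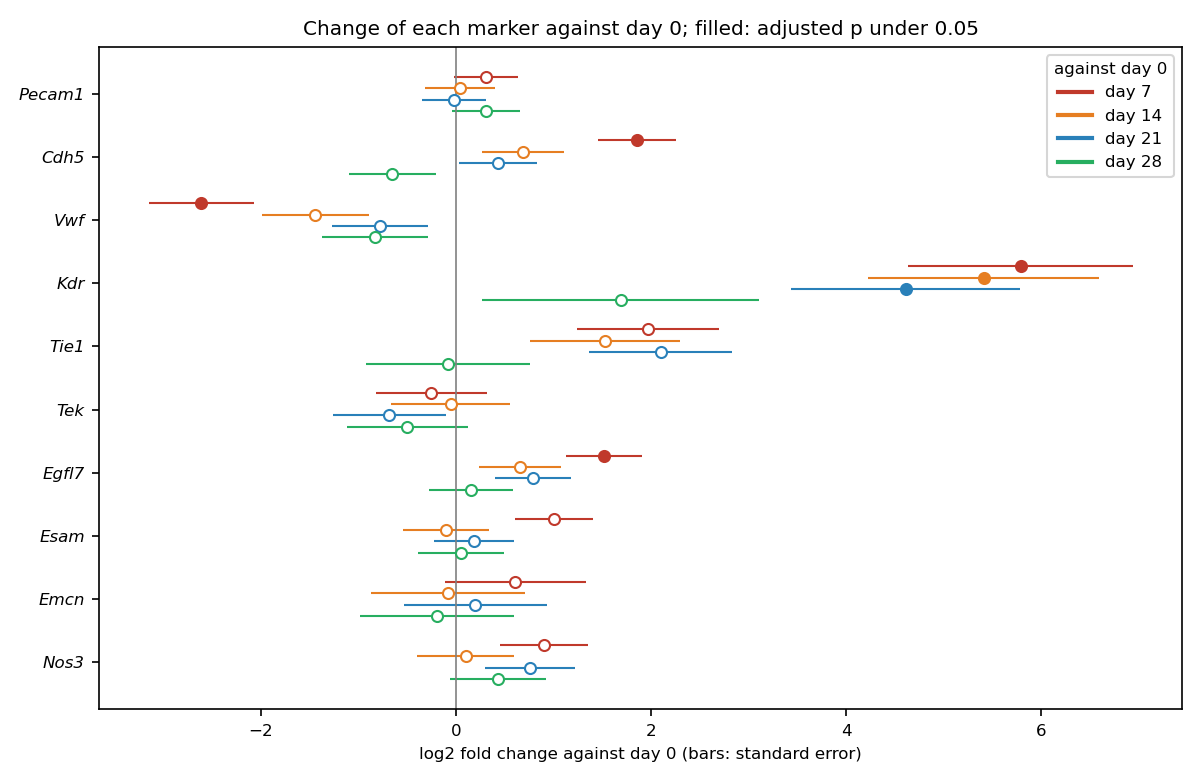
Log2 fold change of each marker against day 0 (horizontal axis) for days 7, 14, 21 and 28, with standard errors as bars and filled points where the adjusted p was under 0.05. Vwf at -2.61 on day 7 stands opposite to Cdh5 at 1.86 and Egfl7 at 1.52; the Kdr estimates come from a model fitted against 1 count on day 0 and depend on how that count is smoothed.

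The change between day 7 and the later days was tested directly. Against day 7, 0 of 10 markers were called on day 14 by edgeR (background 1.66%), 2 at an unadjusted p under 0.05. On day 21 Cdh5 was lower and Vwf higher than on day 7 (2 of 10; background 7.26%, 3.23% lower and 4.03% higher). On day 28 Cdh5, Kdr and Egfl7 were lower and Vwf was higher (4 of 10; background 14.4%, 8.05% lower and 6.40% higher), the reverse of what each did on day 7 against day 0. Both comparisons share the day 7 libraries, so a high or low day 7 library enters each.

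For Cdh5 the fall from day 7 to day 28 was -2.50 on the log2 scale (SE 0.46, adjusted p = 6.59e-04), with all day 28 libraries below all of day 7, and it passed the test in all alternatives run. Kdr fell 18.9-fold (exact 95% interval 6.2 to 94.1, adjusted p = 0.0153), a call lost without day 28 replicate 2 (adjusted p = 0.0589) or replicate 3 (0.0571). Egfl7 fell by 1.36 on the log2 scale (SE 0.43, adjusted p = 0.0355), with all libraries below day 7, but was no longer called in 5 of the 18 fits that left out a library, among them those without day 7 replicate 3 (-0.80, adjusted p = 0.222) and without each of the day 28 libraries. It was also lost with the mouse number as block (-1.19, adjusted p = 0.0522), with only the 2 days in the fit (0.0695) and in the deposited normalised values (0.0701).

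Vwf was 1.83 higher on the log2 scale on day 21 than on day 7 (SE 0.55, adjusted p = 0.0393) and 1.77 higher on day 28 (SE 0.57, adjusted p = 0.0381), with every library above all of day 7. The former call was lost in 6 and the latter in 4 of the 18 fits that left out a library, the libraries being day 7 replicates 1, 2 and 3 in both, with 3 of day 21 or day 28 replicate 2. Their adjusted p lay between 0.0609 and 0.139. In the deposited normalised values the day 21 difference was 2.97 (limma, adjusted p = 0.102) and the day 28 difference 0.98 (adjusted p = 0.619). With only the 2 days in the edgeR fit both calls were lost too (adjusted p = 0.065 for day 21 and 0.156 for day 28). The day 21 fall of Cdh5, -1.43 (SE 0.39, adjusted p = 0.0238), was lost without day 7 replicate 3 (-0.94, adjusted p = 0.177) or without day 21 replicate 1, 2 or 4, and in the deposited normalised values (0.0522).

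A ratio of 2 markers in the same library does not depend on its depth or on the share taken by other genes. Vwf per Cdh5 count was between 1.68 and 2.98 on day 0, with a median of 2.42. On day 7 it was 0, 0.0854, 0.0429 and 0.258, below every library of every other day. Its median was 0.606 on day 14, 1.06 on day 21 and 2 on day 28, and the ranges of days 7, 14, 21 and 28 did not overlap one another, with day 28 (1.87 to 2.26) inside that of day 0. Vwf per Egfl7 count had medians of 1.87, 0.0637, 0.369, 0.663 and 0.9 on the 5 days. Its day 28 range of 0.538 to 1.18 lay wholly below the day 0 range of 1.29 to 2.32. Both ratios use counts without the gene-by-library factor of the deposited normalised values. For Vwf that factor had a median of 0.466 on day 0 and 4.02 on day 28. Kdr per Cdh5 count was 0 in 3 of 4 day 0 libraries and in 2 of 3 day 28 libraries, and had medians of 0.0971, 0.167 and 0.0883 on days 7, 14 and 21. Egfl7 per Cdh5 count had medians of 1.36, 1.04, 1.26, 1.61 and 2.22, with overlap between day 0 and each of days 7, 14 and 21. Its day 28 range of 1.58 to 4.21 lay wholly above the day 0 range of 1 to 1.54.

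**Figure D3:**
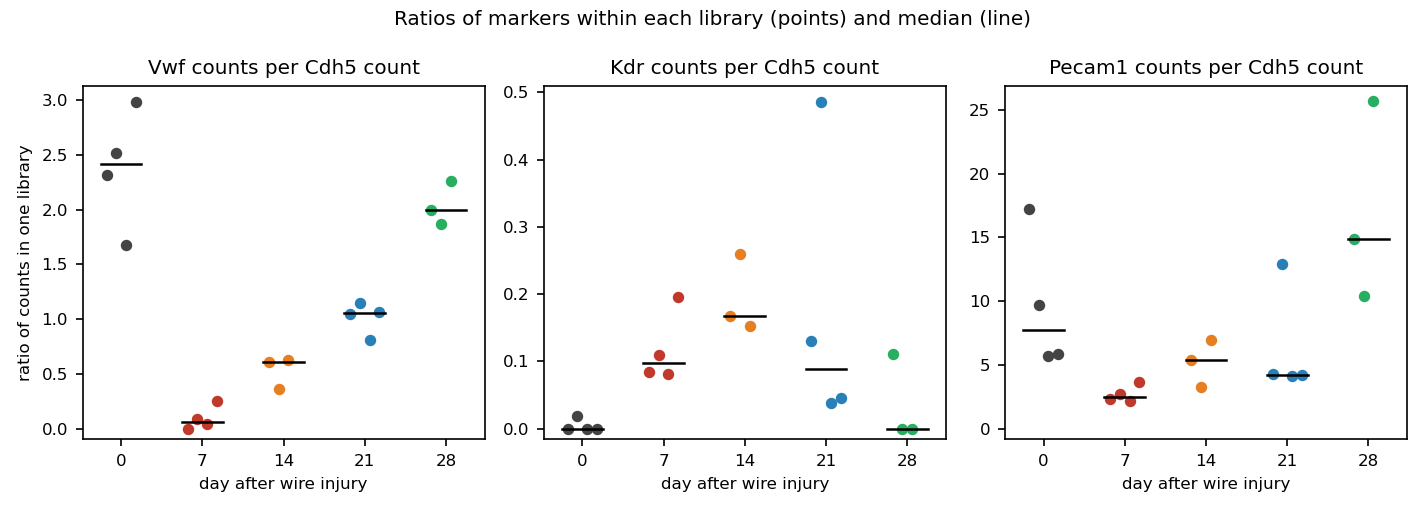
Ratio of the counts of 2 markers in the same library (vertical axes) against day after wire injury; points are libraries and lines are medians. Vwf per Cdh5 is lowest on day 7 (0 to 0.258) and ends at 1.87 to 2.26 on day 28, and Pecam1 per Cdh5 is lowest on day 7 (2.21 to 3.63).

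As a description over libraries that share days and depth, Pearson's r of log2 CPM was 0.78 for Cdh5 with Egfl7, 0.69 for Cdh5 with Kdr and 0.69 for Kdr with Egfl7, the 3 markers that rose, and 0.74 for Kdr with Tie1 and 0.73 for Tie1 with Egfl7. For Vwf it was -0.36 with Cdh5 and -0.46 with Kdr, and for Tek -0.06 with Tie1. The 5 other genes most like the summed markers over the 18 libraries were Rasip1 (r = 0.83), Mmrn2 (0.83), Atp2a3 (0.81), Ints7 (0.75) and Arhgef15 (0.75).

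Other endothelial genes were read from 7 lists of 111 genes in all, of which 96 were tested. On day 7 38 of them rose and 9 fell, which is 49.0% called against the background of 19.8%, and the median of their log2 fold changes was 1.02. By day 14 15 rose and 3 fell (18.8%, background 6.22%), a count of 18 that became 3 when day 14 replicate 2 was left out and 10 when day 14 replicate 3 or day 0 replicate 4 was. On day 21 25 rose and 3 fell (29.2%, background 8.84%), 15 in all without day 21 replicate 2. On day 28 2 rose, Gja4 and Dll4, and none fell (0 of 96), a share of 2.08% that is near the background of 1.34% and a count that ranged from 0 to 4 over the fits without a library. Genes with at most 3 counts on day 0, such as Dll4, Arg1, Robo4, Adgrl4, Ddah1 and Cd40, entered the test through libraries after injury, where they were high. The counts of rises include them. The lists overlap in function with other cell types that also changed, for which values follow.

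Among the junction partners, 2 of 13 tested rose and 1 fell on day 7 (23.1%, near the background of 19.8%). Cldn5, the main claudin of endothelial tight junctions, went from 22.2 to 137 CPM (log2 fold change 2.64, adjusted p = 3.17e-04), with an SD of 135 CPM on day 7. It was still called on day 14 (2.21) and day 21 (2.41). F11r, the junctional molecule JAM-A, rose (2.01) and its relative Jam3 fell by 1.42. Cd34 rose on day 21 (1.03, adjusted p = 0.0452). In the VEGF and angiopoietin list 3 of 10 rose and 1 fell on day 7 (40.0%, background 19.8%). On day 21 5 rose and 1 fell (6 of 10, background 8.84%). Flt1, the VEGF receptor that also acts as a decoy, rose by 1.72 on day 7 and 1.97 on day 21, and Nrp1, a co-receptor of Kdr, by 1.10 and 2.21. Angpt2, the ligand that destabilises the layer through Tek, rose by 1.29 on day 14 and 1.34 on day 21, Vegfa by 1.88 on day 21, and Vegfb fell on days 7, 14 and 21 (log2 fold changes of -1.15, -1.58 and -1.79).

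Of the 19 transcription factors tested, 6 rose and 2 fell on day 7 (42.1%, background 19.8%). Elk3, an ETS factor, went from 32.7 to 114 CPM (1.79, adjusted p = 2.22e-04) and Bcl6b, an endothelial repressor, from 2.84 to 72.4 CPM (4.51, adjusted p = 5.93e-04), and Sox18 (2.19), Erg (1.54), Fli1 (1.59) and Hhex (3.49) rose too. Nr2f2, the factor of venous identity, fell by 2.13 and Mef2c by 1.56. On day 21 6 rose and none fell (0 of 19), which is 31.6% called (background 8.84%). Among those that rose were Klf2, which responds to blood flow, at 1.73 and Sox17, a factor of arterial endothelium, at 2.64.

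The remaining endothelial genes gave 18 called higher and 2 lower of 35 on day 7 (57.1%, background 19.8%). Procr, the endothelial protein C receptor, rose from 46.4 ± 10.9 to 359.8 ± 337 CPM (SD; 2.95, adjusted p = 1.83e-05). The day 7 libraries were thus widely spread, and Procr was at 79.3 CPM on day 14. Cd93 rose from 57.5 to 458 CPM (2.99, adjusted p = 8.62e-05), and Cd36, a fatty acid receptor that macrophages and platelets also carry, from 3.49 to 114 CPM (4.90, adjusted p = 1.31e-04). Gja4, a gap junction protein of arterial endothelium, rose on all 4 days, by 1.78, 1.46, 2.32 and 1.83. Dll4, a Notch ligand of sprouting endothelium, had 0 counts on day 0 and 95 on day 7, at least 41.6-fold higher when 3 counts over the day 0 libraries are taken as the floor. Adgrl4 went from 2 to 102 counts, a ratio of 67 (exact 95% interval 18.1 to 561), and Robo4, which steadies the endothelial barrier, from 1 to 62, a ratio of 81.4 (14.1 to 3268). Esm1, a gene of endothelial tip cells, rose by 2.87. Thbd, the anticoagulant thrombomodulin, fell by 1.40 and Fabp4 by 1.44, and Cav1, which is as much a gene of smooth muscle, fell by 1.48 on day 21.

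The adhesion molecules by which activated endothelium binds leukocytes gave 5 of 5 tested higher on day 7 (background 11.3% higher). Of these, Cd40 passed the filter on low counts through libraries after injury, where it was high. Sele and Ackr1 did not pass it on any day's counts and were not tested, so the filter had a part in this count. The sum of this list on day 7 was 1699 and 1707 CPM in replicates 1 and 2, and 959 and 1046 CPM in replicates 3 and 4. The endothelial marker sum went the other way, at 832 and 868 CPM in the former and 2578 and 2091 CPM in the latter. Which cells carried the adhesion genes was not tested. Vcam1 rose from 122 to 895 CPM (2.87, adjusted p = 4.37e-07), Selp from 31.8 to 199 CPM (2.63, adjusted p = 1.70e-05), Icam1 from 34.2 to 108 CPM (1.65) and Cx3cl1 from 39 to 129 CPM (1.72). Cd40 went from 1 to 42 counts, a ratio of 55.2 (exact 95% interval 9.37 to 2230.2). Selp is stored with Vwf in the same endothelial granules and is also a platelet gene. Sele, the adhesion molecule most particular to endothelium, was not tested, with 0 counts on day 0 and 2 on day 7. Vcam1 was still called on day 21 (1.48), and 0 of 5 were called on day 28 (background 1.34%).

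In the nitric oxide pathway 3 of 12 tested rose and 3 fell on day 7 (6 of 12, background 19.8%). The soluble guanylate cyclase subunits Gucy1b1 (log2 fold change -3.70, adjusted p = 3.15e-05) and Gucy1a1 (-1.97), the receptor for nitric oxide in muscle, and Pde5a (-1.92), which breaks down its messenger, fell. Ddah1, which removes an inhibitor of the synthase, rose from 3 to 72 counts, a ratio of 31.5 (exact 95% interval 10.4 to 156). Ass1, which helps to supply its substrate, rose by 1.53, and Arg1, which competes for that substrate, went from 0 counts before injury to 128 on day 7. In the lymphatic list 2 of 5 genes were tested. Pdpn rose on day 7 (3.33). Ccl21a, at 0 counts on days 0 and 7, was called higher on day 21 with 65 counts (27.4 ± 45.8 CPM, SD, n = 4). This was at least 26.8-fold above the floor. Ccl21a has near-identical copies in the genome, so its counts are uncertain. Lyve1, not tested, went the other way, with 57 counts on day 0, 8 on day 7 and 0 on day 14. Prox1, also not tested, had 2 counts on day 0 and 0 on day 7.

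**Figure D4:**
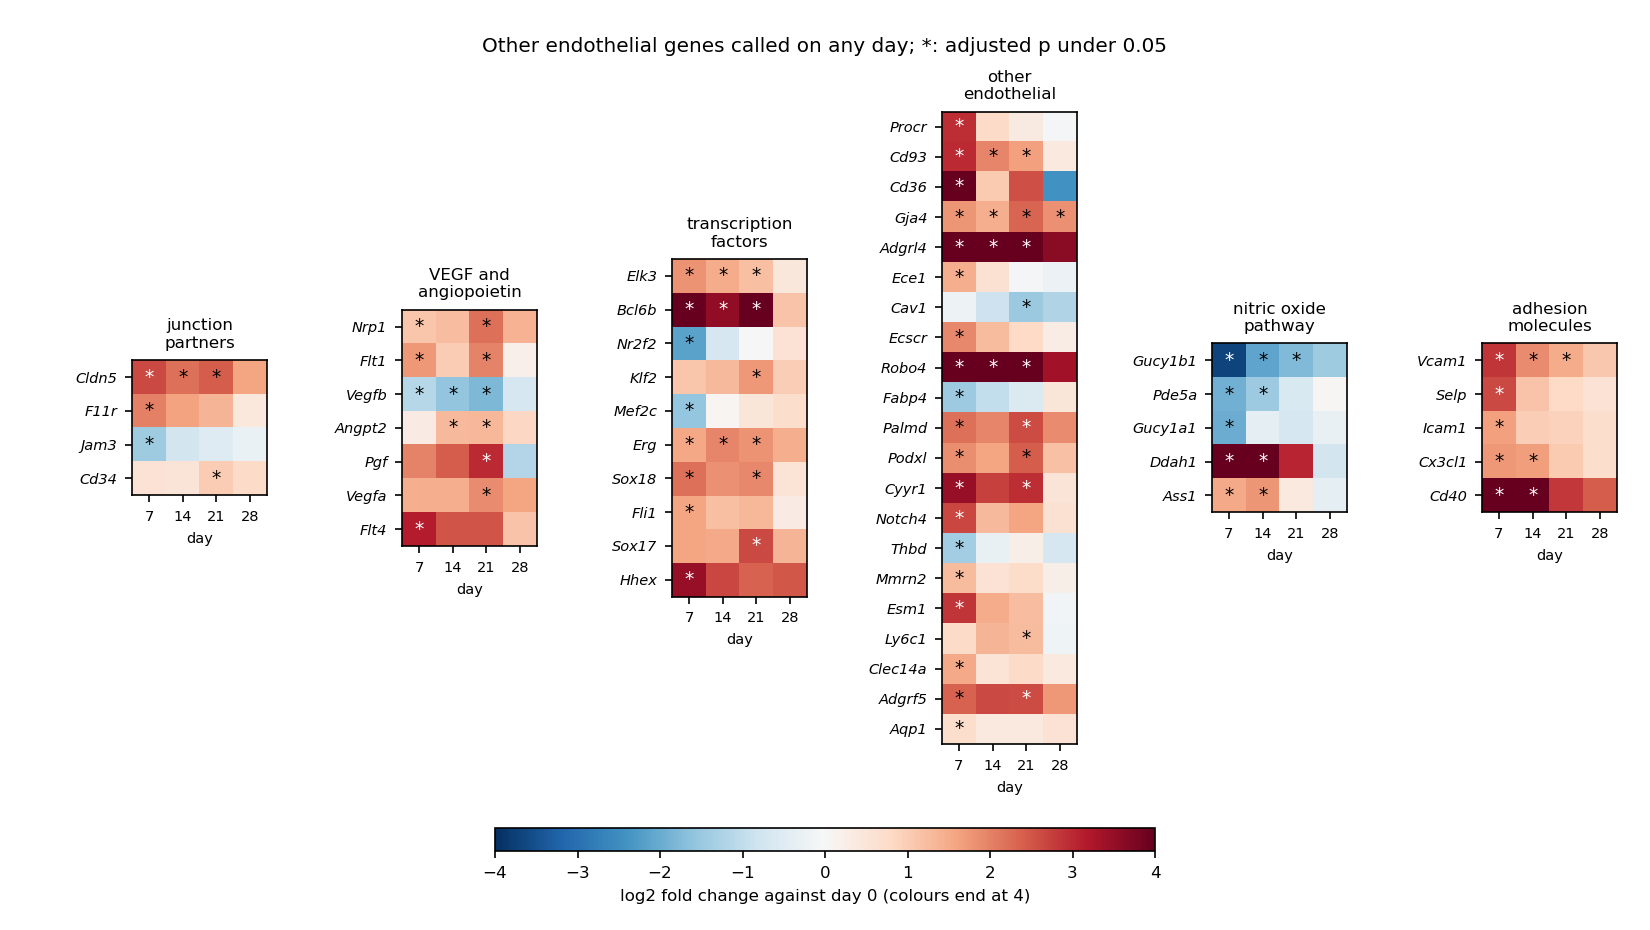
Log2 fold change against day 0 (colour, from -4 to 4) on days 7, 14, 21 and 28 for genes of 6 endothelial lists called on any of those days, stars marking an adjusted p under 0.05; Dll4 and Arg1, at 0 counts on day 0, are left out. Most columns of stars stand on day 7, where 47 genes of all 7 lists were called, and the 1 star on day 28 is Gja4.

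Markers of other cells moved in the same libraries. The 16 macrophage genes summed to 316 CPM on day 0 (148 to 585) and 6812 CPM on day 7 (5896 to 8311). Of them, 16 of 16 rose on day 7 (background 11.3% higher). Among these Itgam and Fcgr1, with 0 and 3 counts on day 0, entered the test through libraries after injury. Erythroid genes went from 214 CPM (40.2 to 369) to 1566 CPM (164 to 2347), with Slc4a1 at 0 on both days. The 10 smooth muscle genes went from 37569.6 CPM (34167 to 39599) to 3692 CPM (1693 to 7381), and 9 of 9 tested fell (background 8.53% lower). The macrophage sum was 1126 CPM and the smooth muscle sum 24827 CPM on day 28. Macrophages also carry Pecam1, Icam1, Cd40, Cd36 and Arg1, and smooth muscle carries the guanylate cyclase subunits, Pde5a and Cav1. The part of either cell type in these results was not tested.

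**Figure D5:**
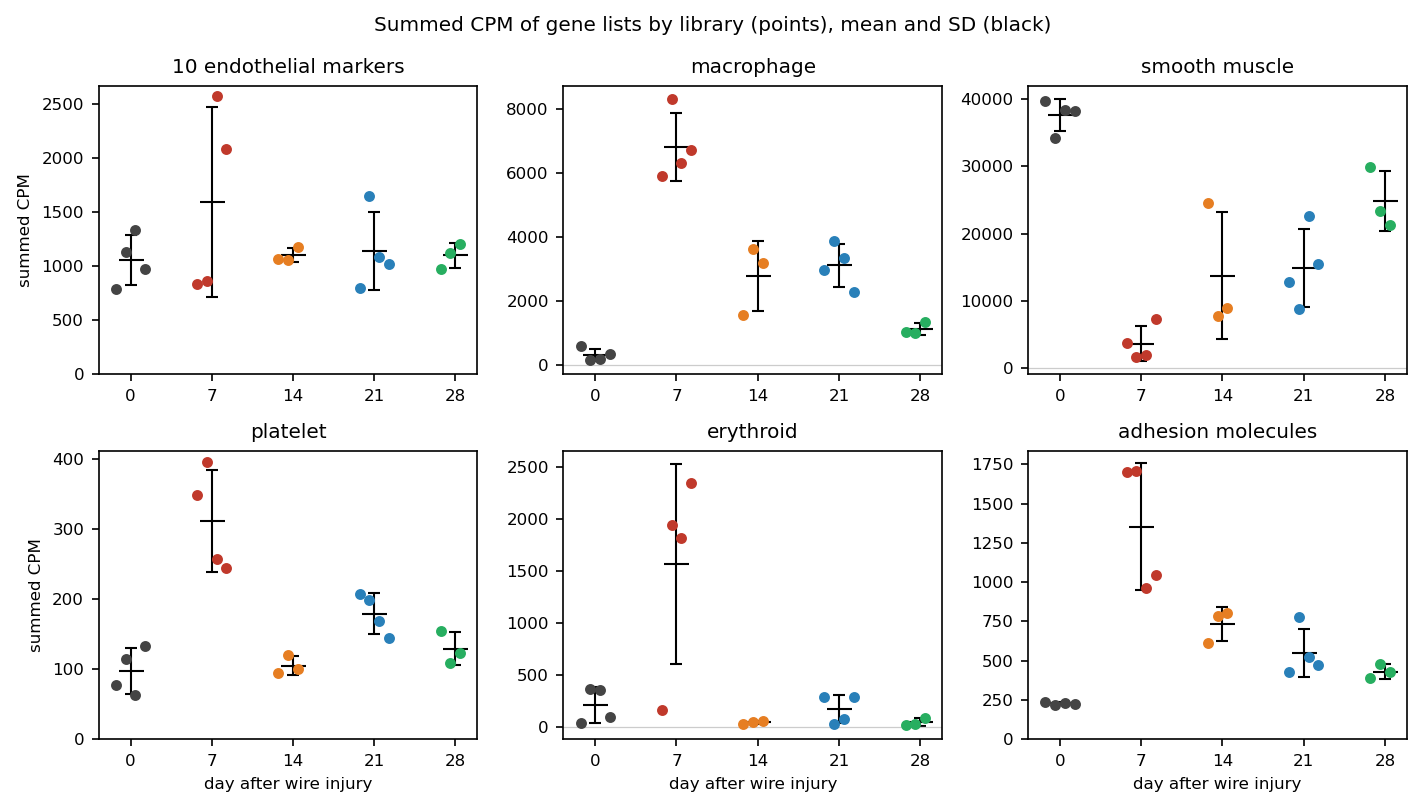
Summed CPM (vertical axes, scaled per panel) of the 10 endothelial markers, of 4 lists for other cell types and of the adhesion molecules, against day after wire injury; points are libraries, black bars and whiskers mean and SD. The endothelial sum stays between 786 and 2578 CPM in all libraries, while the macrophage sum goes from 148 to 585 CPM on day 0 to 5896 to 8311 CPM on day 7 and smooth muscle goes the opposite way.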

How the data were processed

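MACE libraries, which count 3′ ends of polyadenylated RNA, had been made from 18 laser-microdissected carotid samples. PCR duplicates were taken out by their identifiers and the authors estimated transcripts with Salmon 1.9.0 on mm39; the annotation release and the strand setting are not given in the sources used here. The deposited table of estimated counts holds whole numbers for 35655 genes. A second deposited table, used as an alternative only, holds a normalised signal that the authors made with DESeq2 1.36.0 from library and gene-by-library factors.

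The estimated counts were analysed in R 4.3.3 with edgeR 4.0.16 (filterByExpr by day, TMM, quasi-likelihood fit with day as the only factor, all 18 libraries in 1 fit, Benjamini-Hochberg threshold 0.05 over 10312 genes). CPM uses TMM-scaled totals. Alternatives were DESeq2 1.42.0, 2 other normalisations, no filter, only the 2 days compared, blocks for replicate or mouse number (the latter by limma 3.58.1), limma on log2(deposited normalised value + 1), a threshold of 0.1 and leaving out each library. The steps were tested on simulated data.

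The 10 markers and all lists were chosen with earlier results of these data known. All 10 markers are named in full. Of the other endothelial lists, called genes may be named, and the 4 with the smallest p against day 0 are among them. The within-library ratios were chosen after values were seen. Groups with 0 counts on 1 side were set to a floor of 3 counts over the group, and with 1 to 3 counts an exact 95% interval of the ratio is given; both cover counting error only. Libraries of a day differed beyond sampling noise (chi-square per degree of freedom 3.57 to 10.3), so none were merged. Positions of genes follow GENCODE, whose build, GRCm39, is that of the files.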

Additional observations from a re-analysis of the deposited data

Results flagged for a closer look

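Of 33 groups of 4 libraries tested for a sample far from the others, 3 held one, where chance alone gives about 1 in 20. Kdr stood at 1.2 CPM in day 0 replicate 2 and at 0 in the other 3, which is a single count. Esam was at 212 CPM in day 21 replicate 2, against 60.8 to 83.8 CPM in the other 3 libraries of that day; the same library had the highest Pecam1, Kdr, Egfl7 and Nos3 of day 21. Emcn was at 44.2 CPM in day 21 replicate 4, against 18.1 to 21.3 CPM in the other 3.

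The response against day 0 differed between days for 4 markers, tested as the difference between those days. Cdh5 changed by -1.43 from day 7 to day 21 (log2, adjusted p = 0.0238). Its change from day 7 to day 28 was -2.50 (adjusted p = 6.59e-04). Vwf was higher than on day 7 by 1.83 on day 21 (adjusted p = 0.0393) and by 1.77 on day 28 (adjusted p = 0.0381). On day 28 Kdr was lower by a fitted -4.10 (adjusted p = 0.0153) and Egfl7 by -1.36 (adjusted p = 0.0355).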

How the results depend on the processing

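No log2 fold change of a called marker reversed under any alternative; over all markers and comparisons 1825 values kept their side of the threshold, 31 called ones lost it and 24 passed it newly. Of the counts of markers called, day 14 against day 0 gave 2 with no filter on low counts. Day 21 against day 0 gave 2 with DESeq2, with no filter, with the mouse number as block and at a threshold of 0.1, and 0 with only the 2 days in the fit, where Kdr did not pass the filter. Against day 7, day 21 gave 1 and day 28 gave 1 with only the 2 days in the fit, and 0 and 2 in the deposited normalised values. For the wider lists, day 14 gave 29 with no filter and 28 at a threshold of 0.1; day 28 gave 5 with DESeq2, 9 with no filter, 1 with only the 2 days, 0 with the mouse block, 1 in the deposited values and 4 at 0.1. The cause of these differences was not tested.

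Leaving out each library in turn gave 3 to 5 markers called on day 7, 1 to 2 on day 14, 0 to 2 on day 21 and 0 to 0 on day 28, all against day 0. It gave 0 to 1 on day 14, 0 to 2 on day 21 and 1 to 4 on day 28 against day 7, and 3 to 5 for any difference. The wider lists gave 38 to 49, 3 to 23, 15 to 28 and 0 to 4 on days 7, 14, 21 and 28. The mean summed CPM ranged over 966 to 1149, 1263 to 1845, 1065 to 1123, 972 to 1254 and 1049.6 to 1165 on the 5 days.

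Replicate numbers are shared between days, but libraries with the same number did not deviate together (33 pairs, median r = -0.01, from -0.13 to 0.20), nor did the 3 pairs with 1 mouse number (median r = 0.04). With the replicate block 4, 1, 1 and 0 markers were called against day 0 and 44, 15, 25 and 2 genes of the wider lists, and no call of a marker changed. With the mouse number as block, Tie1 was called on days 7 and 21 and Egfl7 was not on day 28 against day 7, and no other call of a marker between 2 days changed (for any difference it gave 5). The median of all genes moved by over 0.1 in 3 cases: with the mouse block by 0.12 (day 14 against 0) and -0.15 (day 28 against 7), and in the deposited values by -0.13 (day 28 against 7). At these depths a marker under 3 counts in a library, such as Kdr on day 0, is not resolved from 0.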

Other observations

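Gene lists for cells around the vessel, which the markers of the report do not cover, also changed, in part through single genes. The 8 fibroblast genes summed to 3127 ± 690.4 CPM on day 0 (SD, n = 4), 1469 ± 575 CPM on day 7 (n = 4) and 3660.5 ± 778 CPM on day 14 (n = 3). On day 7, 5 of 8 were called lower and 1 higher (background 8.53% lower and 11.3% higher). On day 14, 1 of 8 was called higher and 2 lower (background 6.22% in either direction). Lum went from 119 CPM on day 0 to 1566 CPM on day 14, while Gsn went from 1465 to 608 CPM and Clec3b from 235 to 44.8 CPM. The 7 pericyte genes summed to 1044 ± 104, 551 ± 316 and 1800.3 ± 1015 CPM on days 0, 7 and 14. Of these, 3 of 6 tested were called lower on day 7 (background 8.53%). On day 14, 1 of 6 was called higher and 0 lower (background 6.22% in either direction). The gene called was Rgs5, at 40.9 CPM on day 0 and 872 CPM on day 14, while Cspg4 went from 597 to 401 CPM. Lymphocyte genes stayed at 4.86 to 30.5 CPM on average and none of the 7 passed the filter (0 tested). Adipocyte genes averaged 297 CPM on day 0 and 38.3 CPM on day 7, nearly all from Plin4, the 1 gene tested. Adipoq, Cidec and Lep had 0 counts on these days. Schwann cell genes averaged 19 CPM on day 0 and 137 CPM on day 21, where the range was 42.8 to 254 CPM, and skeletal muscle genes reached 362 CPM in 1 library of day 14 and 292 CPM in 1 of day 21, with 1.6 and 8.07 CPM in the lowest libraries of those days.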
